A study of Mus musculus with 12 samples.

Results

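The comparison described here set corticotrophs collected 1 week after dexamethasone (DEX) was stopped against corticotrophs collected at the end of DEX treatment. Its members were the genes whose normalised count exceeded 0.1 in 3 or more of the 12 libraries, 24736 of the 55304 gene symbols listed, and 6 of the 12 libraries entered the contrast. Every mouse was a male *Pomc*-eGFP transgenic on a C57Bl6/J background, in which green fluorescent protein is driven by the promoter of the gene for the ACTH precursor. DEX mice received 2.5 µg/ml of DEX in their drinking water over 4 weeks, and the 1 week mice had the same treatment and then 7 days of recovery. The control group had standard water, and the 4 week group had 28 days of recovery after the same DEX course. Both of these groups helped to estimate the spread. Each group had 3 libraries, and each library was a pool of sorted cells from mice of 1 cage. The replicates are therefore pools, and cage and pool cannot be told apart. The sort read a reporter on the *Pomc* promoter, and the part of a change in *Pomc* activity in which cells passed the gate was not tested.

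Corticotrophs are the anterior pituitary cells that cleave pro-opiomelanocortin to ACTH, which drives glucocorticoid output from the adrenal cortex. Hypothalamic CRH and vasopressin stimulate them through the receptors CRHR1 and AVPR1B, and glucocorticoids restrain them through the glucocorticoid receptor. DEX is a synthetic glucocorticoid that occupies this receptor and silences the axis, and after its withdrawal the axis returns slowly. The contrast asks which transcripts stood apart from the DEX state after the first week without the drug.

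The pools had between 7719894 and 12848078 reads on genes over all 12 libraries. Values are normalised counts, meaning CPM on a library size that the authors had scaled, and 1 read was worth 0.0818 to 0.127 normalised counts in the 6 pools compared. In a pool of sorted cells, fewer cells of a type and less RNA per cell cannot be told apart. 1 week pool 3 and DEX pool 3 stood apart in transcripts that define corticotrophs. *Tbx19* (chr1:165137855-165160773), the T-box factor that specifies the lineage, had 769, 498 and 1490.0 normalised counts in DEX pools 1 to 3 and 282, 385 and 39.5 in 1 week pools 1 to 3. The vasopressin receptor gene *Avpr1b* had 103, 67.9 and 130.1 in the DEX pools and 40, 36.7 and 1.56 in the 1 week pools. In both genes DEX pool 3 was the highest of the 6 pools and 1 week pool 3 the lowest by a wide margin. The growth hormone gene *Gh* was present in every pool, with 67563, 99293 and 104242 under DEX and 91792, 220810.0 and 178717 at 1 week, and *Prl*, the prolactin gene, had 48110.1, 73317 and 49211 and 43612, 111735 and 98284. The sorted cells thus held large amounts of somatotroph and lactotroph transcripts beside those of corticotrophs. The summed normalised count of 17 endothelial markers was 12.9, 20.4 and 15.2 in the DEX pools and 101, 76.5 and 266 in the 1 week pools, and it was highest in 1 week pool 3. The sum over 11 B and plasma cell markers, of which 6 passed the filter and were tested, was 156, 6.37 and 6.23 at 1 week. The immunoglobulin genes *Igha* and *Igkc* had 89.3 and 43.4 in 1 week pool 1, against at most 0.127 and 0.255 in the other two.

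**Figure D1:**
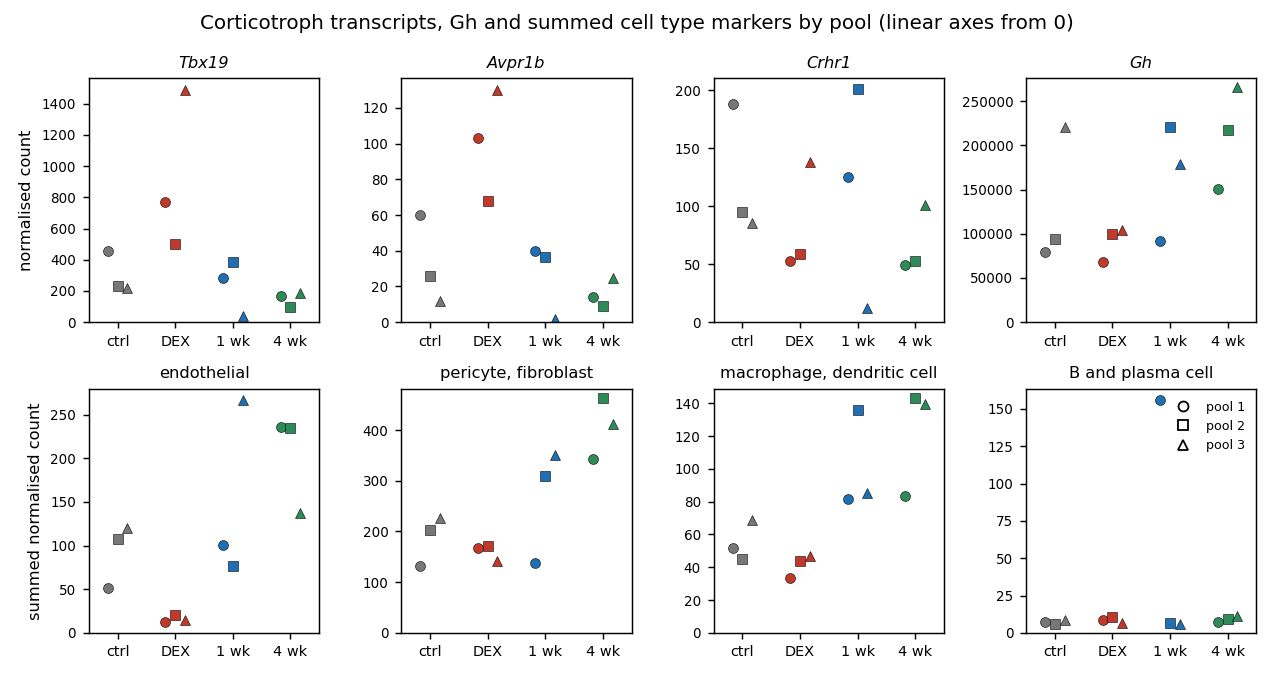
Normalised counts of *Tbx19*, *Avpr1b*, *Crhr1* and *Gh* (upper panels) and the summed normalised counts of 4 lists of cell type markers (lower panels) in the 3 pools of each group, on linear axes that start at 0. Circles, squares and triangles are pools 1, 2 and 3 and colours are groups. *Tbx19* reached 1490 in DEX pool 3 and 39.5 in 1 week pool 3, and the endothelial sum was 12.9 to 20.4 under DEX and 76.5 to 267 at 1 week.

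With limma on log2(value + 0.1) and Benjamini-Hochberg adjustment over the 24736 genes, 107 genes (0.433%) had an adjusted p under 0.05. Of these, 26 (0.105%) were higher at 1 week and 81 (0.327%) were lower. The fall was thus the more frequent direction, at 75.7% of the called genes, and this share was 53.1% when 1 week pool 3 was left out, 41.0% without both pools numbered 3 and 47.5% with limma's array weights. These weights were 2.44, 0.341 and 0.351 for 1 week pools 1 to 3, so every fit with array weights leaned on 1 week pool 1. The genes that were lower had a median over genes of 30.4 normalised counts under DEX and 4.4 at 1 week, and those that were higher had 1.56 and 15.0. Without the genes with at most 3 reads in every pool of a group, the log2 fold change had a median of 2.88 over 22 higher genes and -2.58 over 66 lower genes. At an unadjusted p under 0.05 there were 1283 higher (5.19%) and 1382 lower genes (5.59%), and pools did not overlap in 1725 (6.97%) and 1700 genes (6.87%). The median log2 fold change of all genes was 0.03. The number of calls leaned on single pools. It was 29 without DEX pool 1, 16 without DEX pool 3, 200 without 1 week pool 1, and 39 without both pools numbered 3, with 23 higher and 16 lower, and it was 0 when the control and 4 week libraries were left out of the model, for every gene list as well. All 107 genes kept their sign in each of these fits.

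**Figure D2:**
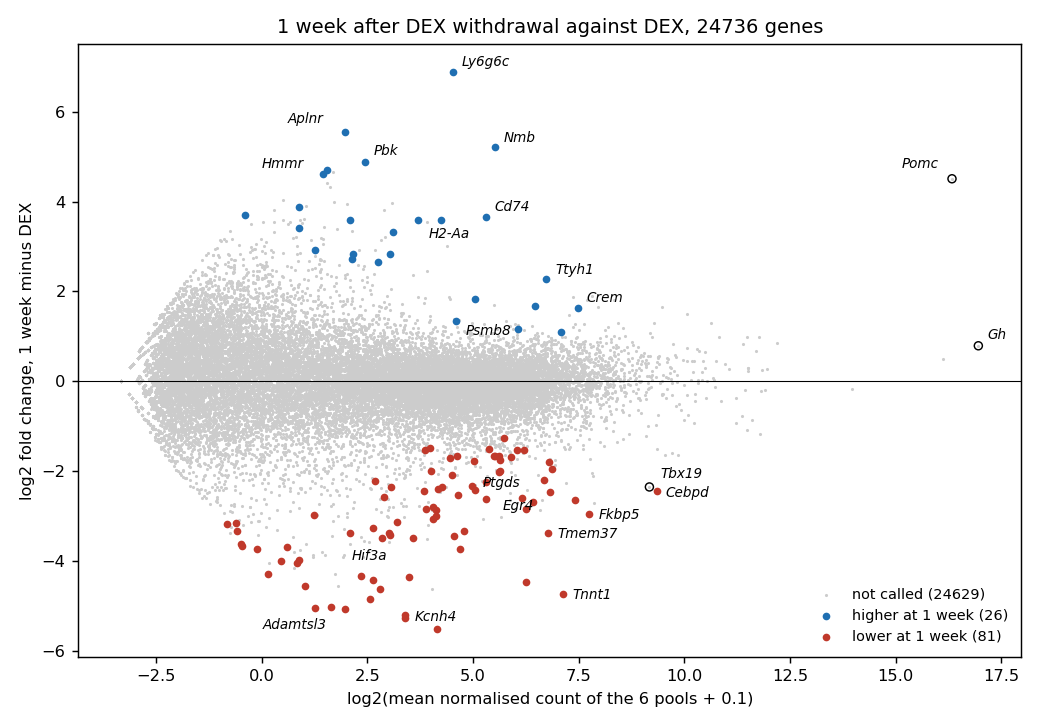
Log2 fold change (1 week minus DEX, on log2(normalised count + 0.1)) against the log2 mean level of the 6 pools for the 24736 genes tested. Blue points are the 26 genes called higher, red points the 81 called lower, and open circles mark *Pomc*, *Tbx19* and *Gh*, which were not called. Genes called lower are spread over a range of levels down to a log2 fold change of -5.51.

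*Pomc* itself (chr12:3954951-3960642) had 4362, 8521 and 4241 normalised counts in DEX pools 1 to 3 and 149459, 284740.0 and 43612 in 1 week pools 1 to 3. The lowest 1 week pool lay well above the highest DEX pool. 1 week pools 1 and 2 were also above all control pools (34562 to 74260.1) and all 4 week pools (48189 to 80216), and pool 3 was within the control range. The group means were 5708 ± 2437 and 159270.0 ± 120863 (SD, n = 3), a ratio of 27.9. The log2 fold change was 4.51 ± 1.10 (SE), with a 95% interval of 2.17 to 6.84. Its adjusted p was 0.0842, so *Pomc* did not pass the threshold in the main test, and the two-sided exact permutation test gave p = 0.1, the smallest that 3 pools against 3 can give. Without 1 week pool 3, where *Tbx19* was also low, the log2 fold change was 5.25 with an adjusted p of 0.0371. It also passed in edgeR's quasi-likelihood test on the recovered reads, with a log2 fold change of 4.80 and an adjusted p of 0.00438.

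None of 22 regulators of corticotroph identity and response passed the test in either direction, and their median log2 fold change was -0.12. At an unadjusted p under 0.05, 5 were lower and 2 higher, beside 5.59% and 5.19% of all genes. By edgeR's likelihood ratio test 3 were called lower and 1 higher, and DESeq2 called 1 lower. *Tbx19* had a log2 fold change of -2.35 ± 0.65 (SE) and *Avpr1b* of -2.85 ± 0.90 (SE), with adjusted p-values of 0.132 and 0.196. Pools of the groups did not overlap in either gene, with the DEX pools on the high side. *Crhr1*, the CRH receptor gene, had 52.7, 59.2 and 138 in the DEX pools and 125, 201 and 12.5 at 1 week, where pools 1 and 2 sat near or above the highest DEX pool and pool 3 below them all. Its log2 fold change of -0.15 turned to 1.07 without 1 week pool 3. *Neurod1*, a basic helix-loop-helix factor that acts with TBX19 on *Pomc*, had 28.9, 27.1 and 28.6 and 65.8, 23.1 and 10.8, and its groups overlapped. *Nr3c1*, the glucocorticoid receptor gene, had 108, 104 and 110.5 and 167, 102 and 84.6. The difference in *Nr3c1* was 0.07 ± 0.27 (SE) on the log2 scale, with an interval of -0.49 to 0.64.

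Genes for the proteins that process and store POMC gave no call. Of 28 genes for prohormone processing and the secretory granule, *Pomc* among them, none passed the adjusted threshold, and the median log2 fold change was 0.31. 5 were higher and none lower at an unadjusted p under 0.05, beside 5.19% and 5.59% of all genes. *Pcsk1*, the convertase that makes the first cuts in POMC, had 242, 244 and 202 under DEX and 595, 837 and 193 at 1 week. Pools 1 and 2 at 1 week were above every DEX pool and pool 3 was below them, and the adjusted p was 0.465. *Scg3*, a granin of the granule membrane, had 197, 204 and 129 and 379.5, 319 and 314, with no overlap, a ratio of 1.91 and an adjusted p of 0.091. Among 29 genes of folding and translocation in the endoplasmic reticulum none passed, and the median was 0.17. Of these, 3 were higher and none lower at an unadjusted p under 0.05, beside 5.19% and 5.59% of all genes. *Sec61b*, part of the translocon, had a log2 fold change of 0.76 ± 0.29 (SE), and *Manf*, a secreted folding-stress factor, of 0.66 ± 0.29 (SE), with adjusted p-values of 0.324 and 0.413.

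**Figure D3:**
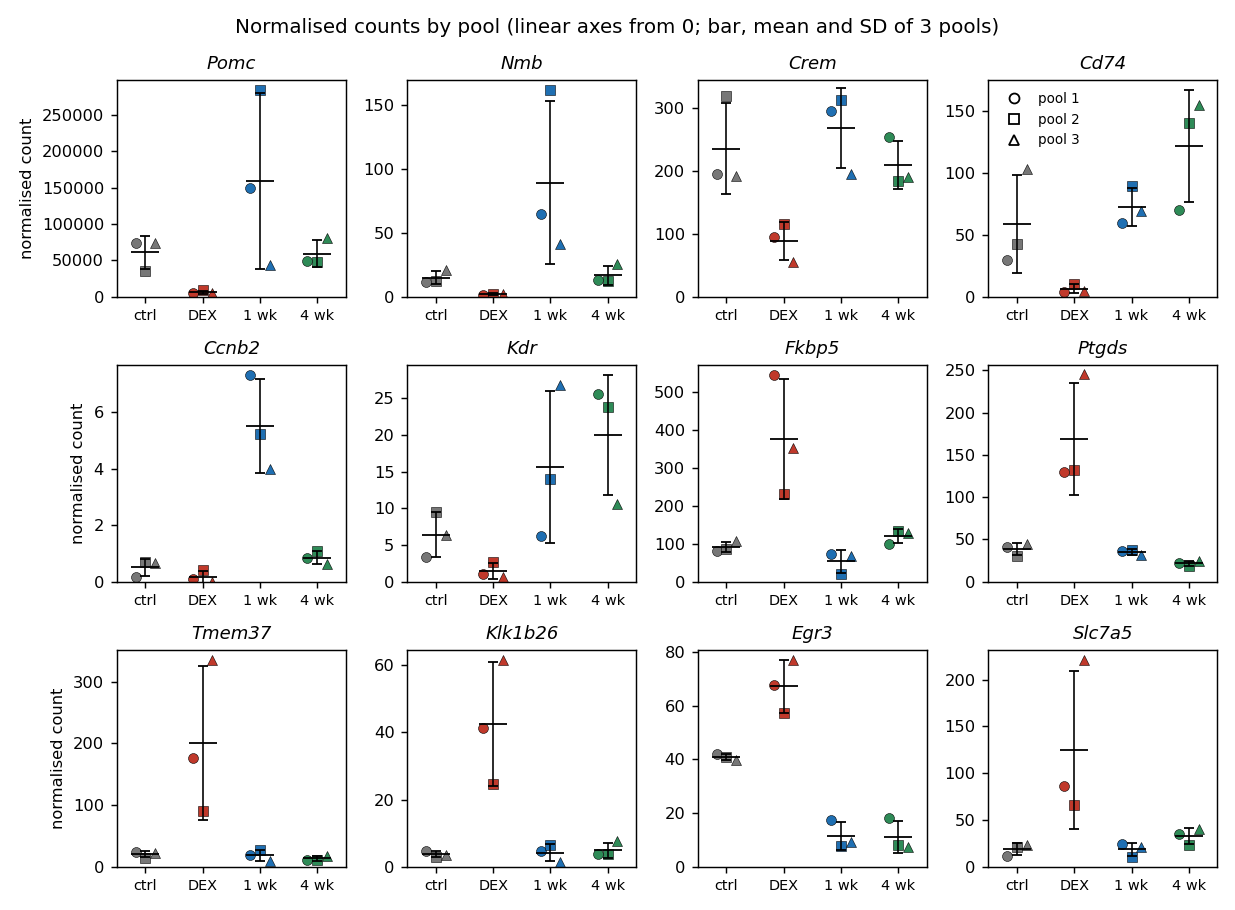
Normalised counts of 12 genes in the 3 pools of each group, on linear axes from 0. Circles, squares and triangles are pools 1, 2 and 3, colours are groups, and the black bars are the mean and SD of 3 pools. *Pomc*, *Nmb*, *Crem*, *Cd74*, *Ccnb2* and *Kdr* were higher at 1 week than under DEX in every pool, and the other 6 genes were lower.

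The gene with the smallest adjusted p was *Nmb* (chr7:80902227-80905076), which encodes neuromedin B, a bombesin-like peptide. It had 1.49, 2.21 and 2.24 normalised counts in the DEX pools and 64.5, 162 and 41.5 at 1 week. Every 1 week pool lay far above the DEX pools and also above the control pools (11.7 to 20.7) and the 4 week pools (12 to 25.4). The ratio of means was 45.1, and the log2 fold change was 5.21 ± 0.45 (SE) with an adjusted p of 0.000119, which passed in 12 of the 12 fits that left out 1 library. Part of an *Nmb* exon is shared with *Sec11a* on the same strand, and *Sec11a* had a log2 fold change of 0.38 (adjusted p = 0.631). *Nmb* was the only one called of 27 tested genes for neuropeptides and secreted signals, beside 0.105% of all genes called higher. The median of the list was 0.26, and with 1 week pool 1 left out *Inhba* passed as well. *Inhba*, the activin and inhibin beta A subunit, had 0, 0.245 and 0.561 and 1.24, 2.55 and 4.89, with a log2 fold change of 3.20 ± 0.72 (SE) and an adjusted p of 0.0646 with all libraries and 0.0455 without that pool. *Penk*, the proenkephalin gene, had 51.6, 43.6 and 66.7 under DEX and 30, 22 and 23.3 at 1 week. The *Penk* pools did not overlap, with DEX on the high side, but its adjusted p was 0.116.

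Genes with known induction by glucocorticoids were called in 1 direction. Of 38 tested, 8 were called lower and none higher, beside 0.327% and 0.105% of all genes. 22 were lower at an unadjusted p under 0.05, beside 5.59% of all genes. The median log2 fold change was -0.97, beside 0.03 over all genes. Some of the members had been picked by the study on these samples, so this list is not independent evidence of its direction. *Fkbp5* (chr17:28399094-28517527), the co-chaperone that restrains the glucocorticoid receptor and a standard readout of its activity, had 545, 230.1 and 354 in the DEX pools and 72.1, 19.5 and 68.3 at 1 week. DEX pool 1 was the highest and 1 week pool 2 the lowest, and the 1 week pools lay below the control range of 80.8 to 106. The mean fell 7.07-fold, the log2 fold change was -2.95 ± 0.42 (SE) and the adjusted p was 0.00581, and this call held in 12 of the 12 fits that left out 1 library.

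The other called members of the glucocorticoid list have various roles. *Hif3a*, a hypoxia-inducible factor subunit, had 21.5, 19.1 and 24.8 under DEX and 2.76, 1.53 and 1.45 at 1 week, a log2 fold change of -3.50 ± 0.47 (SE) with an adjusted p of 0.0044. *Cebpd*, a C/EBP transcription factor, had 849, 607 and 1825 and 347, 88.5 and 187, and DEX pool 3 was the highest. Its log2 fold change was -2.45 ± 0.45 (SE) and its adjusted p 0.0215. *Zbtb16*, the zinc finger protein PLZF, had 48.1, 22.6 and 41.7 and 11, 9.69 and 13.1, which is the smallest change among the called members at -1.66 ± 0.33 (SE). *Arrdc2*, an arrestin-domain protein, fell by 3.00 on the log2 scale. *Map3k6*, a stress kinase, fell by 3.37, *Sult1a1*, a phenol sulfotransferase, fell by 2.86, and *Pik3ip1*, an inhibitor of PI3 kinase, fell 4.23-fold. Adjusted p-values of these last 4 genes were between 0.00581 and 0.022. By contrast *Tsc22d3*, the glucocorticoid-induced leucine zipper gene, had 115, 99.3 and 122 under DEX and 85.5, 109.9 and 104 at 1 week. Its groups overlapped, with a log2 fold change of -0.17 ± 0.22 (SE) and an interval of -0.64 to 0.30. *Per1*, a clock gene with glucocorticoid response elements, had 51.9, 58 and 54.9 and 32.2, 85.4 and 40.2, and 1 week pool 2 was the highest of the 6. The list's 8 calls were 3 without DEX pool 1, 2 without DEX pool 3 and 3 without both pools numbered 3, where the median was -0.72.

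**Figure D4:**
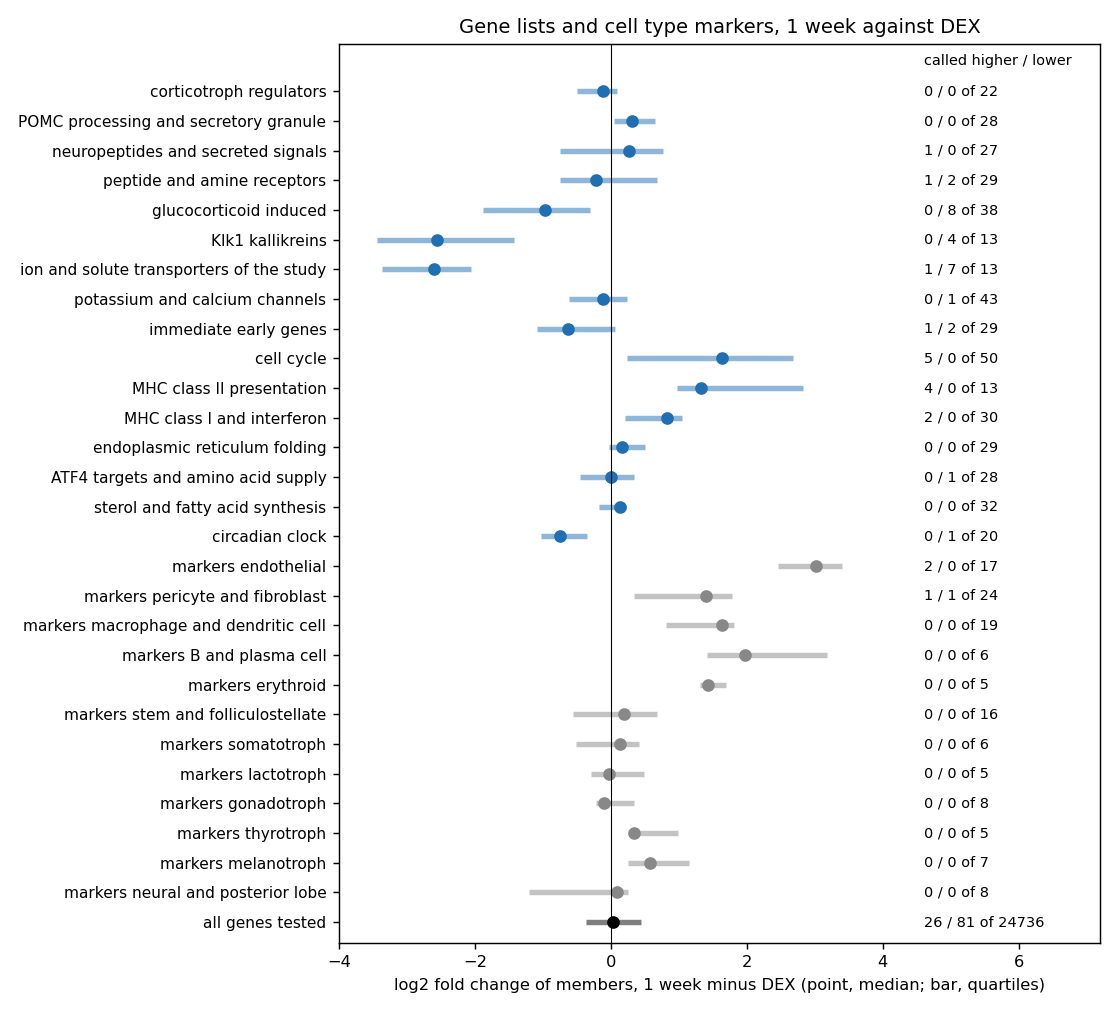
Median (point) and quartiles (bar) of the log2 fold change, 1 week minus DEX, over the tested members of each gene list, with cell type markers in grey and all genes in black. Numbers at the right are members called higher and lower of those tested. The kallikrein and transporter lists have medians near -2.6 and the endothelial list has a median of 3.02, beside 0.03 over all genes.

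4 genes of the *Klk1* family fell together. These tissue kallikreins are secreted serine proteases encoded in a cluster on chromosome 7. Of 14 listed genes 13 were tested, 4 were called lower and none higher, beside 0.327% and 0.105% of all genes. 10 had non-overlapping pools with DEX on the high side, beside 6.87% of all genes, and the median log2 fold change was -2.56. Several members had been singled out by the study on these samples. *Klk1b26* had 41.4, 24.6 and 61.6 normalised counts in the DEX pools and 4.66, 6.63 and 1.45 at 1 week, which is a 10-fold fall (log2 fold change -3.44 ± 0.52 (SE), adjusted p = 0.00664). *Klk1b16* had 37.6, 30.1 and 80.7 and 3.99, 9.18 and 2.22, and *Klk1b21* had 13.4, 8.09 and 18.3 and 0.19, 0.765 and 0.445. Their log2 fold changes were -3.34 ± 0.51 (SE) and -4.62 ± 0.67 (SE), with adjusted p-values of 0.00783 and 0.00581. In all 3 genes DEX pool 3 was the highest and DEX pool 2 the lowest of its group, and the 1 week pools lay near the control pools, which had 2.94 to 4.8, 4.95 to 7.61 and 0.326 to 1.02. *Klk1b4* had 2.57, 0.736 and 6.5 under DEX and at most 2 reads in each 1 week pool, and was at least 9.8-fold lower when 3 reads per library are taken as the floor (adjusted p = 0.0215). It met the filter on low values through its DEX pools, where it was high, so its call is not independent of the filter. The 4 calls were 2 without DEX pool 1 and none without DEX pool 3 or without both pools numbered 3, when the median was -2.36 in each of the last pair.

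These genes form a family of related sequence. Whether reads were split between members in counting was not tested, so values of single members are uncertain. The promoters of the called members are alike, as the sequences of *Klk1b16* and *Klk1b26* show. They are given as the 250 bases before the RefSeq start on GRCm38.p6, 5′ to 3′, with CCAAT or its complement ATTGG in capitals, and over 236 aligned bases the pair was 91.9% identical.
Klk1b16 (chr7:44137040-44137289, plus strand): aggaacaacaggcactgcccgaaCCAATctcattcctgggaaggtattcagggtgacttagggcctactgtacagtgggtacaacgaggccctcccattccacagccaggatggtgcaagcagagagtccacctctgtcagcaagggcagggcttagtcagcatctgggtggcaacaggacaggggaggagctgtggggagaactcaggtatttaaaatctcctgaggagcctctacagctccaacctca
Klk1b26 (chr7:44012428-44012677, plus strand): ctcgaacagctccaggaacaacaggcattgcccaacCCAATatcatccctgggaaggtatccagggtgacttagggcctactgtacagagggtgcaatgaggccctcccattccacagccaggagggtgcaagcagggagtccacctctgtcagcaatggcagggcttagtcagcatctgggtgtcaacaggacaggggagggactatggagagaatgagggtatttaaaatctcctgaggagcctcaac
Among the 4 called members, promoter identity ran from 85.6% to 91.9% over aligned bases. The match to CCAAT lies far upstream in both, at 227 and 214 bases before the start. No promoter of the 13 tested members held the core of a glucocorticoid response element, searched on both strands as GNACA and TGTNC with a spacer of 3 bases, in this window. Over all 14401 tested genes with a promoter entry 0.396% held it, and 4 of 32 (12.5%) glucocorticoid-induced genes with an entry did. A match is a description of letters, and 1 of 60 genes called lower with an entry (1.67%) had one, *Map3k6*.

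Solute and ion transporters and channels formed another group. The study had chosen these 13 genes on these samples, so their direction is not independent evidence. 7 were called lower and 1 higher, beside 0.327% and 0.105% of all genes, and the median log2 fold change was -2.60. *Slc7a5* (chr8:121881150-121907694), the large neutral amino acid transporter LAT1, had 86.2, 66.4 and 221 in the DEX pools and 24.1, 10.8 and 21.5 at 1 week. It fell 6.62-fold, with a log2 fold change of -2.60 ± 0.44 (SE) and an adjusted p of 0.013. *Atp2a1*, the calcium pump SERCA1 of the sarcoplasmic reticulum, had 135, 53.6 and 249 and 12.4, 7.39 and 1.67, a log2 fold change of -4.47 ± 0.66 (SE) (adjusted p = 0.00585). DEX pool 3 was the highest in both genes, and in *Atp2a1* 1 week pool 3 was the lowest. Part of *Atp2a1* overlaps *Rabep2* on the other strand, and *Rabep2* had a log2 fold change of -1.63 (adjusted p = 0.0663). *Slc12a5*, the chloride exporter KCC2, had 29.2, 29.4 and 51.7 and 9.41, 6.12 and 9.67. *Slc24a4*, a sodium, potassium and calcium exchanger, had 9.77, 13 and 18.6 and 4.37, 2.17 and 1.67. *Slc5a3*, the myo-inositol cotransporter, had 89.3, 119 and 82.8 and 43.6, 21.3 and 39.6, and it shares exon bases with *Mrps6* on the same strand. These 3 fell by 2.09, 2.36 and 1.53 on the log2 scale. *Tmem37*, a subunit-like protein of voltage-gated calcium channels, had 176, 90.3 and 335 and 19.2, 26.6 and 9.23 (-3.37 ± 0.45 (SE), adjusted p = 0.0044), and it passed in all 12 fits that left out 1 library. The called potassium channel *Kcnh4* also belongs to this group. The member called higher was *Ttyh1*, a Tweety-family membrane protein, with 26.3, 37.4 and 31.8 under DEX and 128, 329 and 85.2 at 1 week, a ratio of 5.68 (2.28 ± 0.37 (SE), adjusted p = 0.0117), which was not called without DEX pool 1 or 3. The 7 lower calls were 4 without DEX pool 1, 1 without DEX pool 3 and 3 without both pools numbered 3.

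The 43 tested potassium and calcium channels had a median log2 fold change of -0.12, beside 0.03 over all genes. 1 was higher and 5 were lower at an unadjusted p under 0.05, beside 5.19% and 5.59% of all genes. Pools did not overlap in 2 on the higher and 6 on the lower side, beside 6.97% and 6.87%. 1 channel was called lower, beside 0.327% of all genes. That gene, *Kcnh4* (chr11:100740376-100759942), a voltage-gated potassium channel of the Elk type, had 18.6, 11.7 and 30.8 under DEX and 0.665, 0.127 and 0.667 at 1 week. The pools were far apart, with a log2 fold change of -5.21 ± 0.71 (SE) and an adjusted p of 0.00482, which was 0.0509 without DEX pool 3. *Kcnc1*, of the Kv3 type, had 27.3, 9.89 and 15.1 and 3.42, 0.892 and 3.67, with a log2 fold change of -2.77 ± 0.64 (SE) and an adjusted p of 0.069. *Kcnma1*, the large-conductance BK channel that glucocorticoids are known to modulate in these cells, had 45.7, 35.2 and 28.3 and 43.3, 15.8 and 34.6. The groups of *Kcnma1* overlapped, and the interval of its log2 fold change was -1.01 to 0.39. Without control pool 3 or without 1 week pool 3, 2 channels were called lower in place of 1, and without DEX pool 3 none was.

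Among 29 tested receptors for peptides and amines, 1 was called higher and 2 lower, beside 0.105% and 0.327% of all genes. The median was -0.23. *Chrm2*, the M2 muscarinic acetylcholine receptor, had 17, 17.3 and 25.2 in the DEX pools and 2.09, 0.51 and 0 at 1 week. It fell by 5.26 on the log2 scale (SE 1.04, adjusted p = 0.0372), and 1 week pool 3 was at 0. *Gpr39*, a zinc-sensing receptor, had 25.8, 13.3 and 52.8 and 5.61, 4.33 and 4.89, with a log2 fold change of -2.40 ± 0.48 (SE) and an adjusted p of 0.0378. *Gpr39* overlaps *Lypd1* on the opposite strand, which was also called, and the library kit does not mark strand, so they cannot be told apart. *Aplnr*, the apelin receptor and also an endothelial gene, had 0.0828, 0 and 0 under DEX, where no pool exceeded 1 read, and 2.19, 5.23 and 15.6 at 1 week. It was at least 27.7-fold higher against a floor of 3 reads per library, with an adjusted p of 0.00581. *Sstr2*, a somatostatin receptor, had 0.663, 0.491 and 0.449 and 1.81, 4.84 and 7, with no overlap, a ratio of 8.52 and an adjusted p of 0.0646, or 0.0277 without 1 week pool 1. *Chrm2* passed in 5 of the 12 fits that left out 1 library and *Gpr39* in 3 of the 12, and neither passed without control pool 2, DEX pool 1 or 3, 1 week pool 2 or 3, or 4 week pool 1, where adjusted p-values were between 0.0532 and 0.203.

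Immediate early genes, which cells switch on within minutes of a stimulus, went both ways. Of 29 tested, 2 were called lower and 1 higher, beside 0.327% and 0.105% of all genes, and the median log2 fold change was -0.64. More leaned down, with 9 lower and 3 higher at an unadjusted p under 0.05, beside 5.59% and 5.19% of all genes. Pools did not overlap in 8 on the lower and 2 on the higher side, beside 6.87% and 6.97%. *Egr3* (chr14:70077203-70082614), a zinc finger factor of the early growth response family, had 67.6, 57.1 and 76.9 in the DEX pools and 17.5, 7.9 and 9.23 at 1 week. All 1 week pools were below the control pools (39.7 to 42.1) as well, and the log2 fold change was -2.61 ± 0.35 (SE) with an adjusted p of 0.0044. *Egr4* had 173, 149 and 222 and 91.2, 15.8 and 23.9, and 1 week pool 1 sat far above the other two. The log2 fold change of *Egr4* was -2.46 ± 0.45 (SE) (adjusted p = 0.0228), and it was not called without DEX pool 1, DEX pool 3 or 1 week pool 2. *Crem*, a cyclic AMP responsive factor whose short form ICER shuts off cyclic AMP induced genes, had 94.2, 115 and 55.2 under DEX and 295, 313 and 195 at 1 week. It rose 3.03-fold, with a log2 fold change of 1.63 ± 0.31 (SE) and an adjusted p of 0.0297, a call that held in 6 of the 12 fits that left out 1 library, and not without DEX pool 1, DEX pool 3, 1 week pool 1, 1 week pool 2, or 4 week pool 2 or 3.

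The 20 genes of the circadian clock had a median of -0.74. 8 were lower and none higher at an unadjusted p under 0.05, beside 5.59% and 5.19% of all genes. 1 was called lower, beside 0.327% of all genes. *Ciart*, a repressor of the clock, had 46.1, 16.3 and 34.4 and 9.22, 5.61 and 3.67, with a log2 fold change of -2.34 ± 0.47 (SE) and an adjusted p of 0.0378, which held in 5 of the 12 fits without 1 library and not without control pool 1 or 2, DEX pool 1 or 3, 1 week pool 2 or 3, or 4 week pool 3. *Tef*, a PAR domain output factor of the clock, had 107, 79.2 and 151 and 40.4, 63.3 and 56.7, with a log2 fold change of -1.05 ± 0.26 (SE) and an adjusted p of 0.0861. In both genes the pools did not overlap, DEX pools being the higher. All tissues were taken in one early rest window, so phase within the day was not sampled.

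Cell cycle genes were called in the upward direction. Of 50 tested, 5 were called higher and none lower, beside 0.105% and 0.327% of all genes. 29 were higher and 2 lower at an unadjusted p under 0.05, beside 5.19% and 5.59% of all genes. The median log2 fold change was 1.63, beside 0.03 over all genes. *Ccnb2* (chr9:70407692-70421547), a B-type cyclin that drives entry to mitosis, had 0.0828, 0.409 and 0 normalised counts in the DEX pools and 7.32, 5.23 and 4 at 1 week. The log2 fold change was 4.70 ± 0.70 (SE) and the adjusted p 0.00664. *Hmmr* (chr11:40701395-40733422), a spindle-associated hyaluronan receptor, had at most 2 reads in each DEX pool and 7.89, 5.48 and 2.22 at 1 week, at least 18.8-fold higher against the floor (adjusted p = 0.00581). *Pbk*, a mitotic kinase, had at most 3 reads in each DEX pool and 20.5, 7.77 and 3 at 1 week, at least 37.7-fold higher (adjusted p = 0.0191). In these 3 genes 1 week pool 1 was the highest and pool 3 the lowest of its group.

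*Top2a*, the topoisomerase that untangles replicated chromosomes, had 0.497, 0.245 and 0.673 under DEX and 14.4, 6.25 and 2.89 at 1 week, with a log2 fold change of 3.58 ± 0.64 (SE) and an adjusted p of 0.0191. *Ccnb1*, the other main mitotic cyclin, had 0.663, 1.39 and 1.01 and 9.89, 8.67 and 4, with 2.72 ± 0.55 (SE) and 0.0397. Control pools had 0.0787 to 0.118 in *Hmmr* and 0.825 to 1.74 in *Ccnb1*, and in each of the 5 genes every 1 week pool was above every control pool. Levels were low throughout. The 5 calls were 2 without DEX pool 1, none without DEX pool 3, 2 without 1 week pool 1 (where 1 gene was also called lower) or 1 week pool 2, 12 without 1 week pool 3, and 3 without both pools numbered 3, where the median was 1.80. With array weights 27 genes of the list were called higher, and 20 by DESeq2, 20 by edgeR's likelihood ratio test and 9 by its quasi-likelihood test, while the last 3 each called 1 gene lower. The count with array weights leaned on 1 week pool 1, which was the highest of its group in each of the 5 called genes. Which of the sorted cells carried these transcripts was not tested.

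Promoters of cell cycle genes are known to carry CCAAT boxes, bound by the factor NF-Y, often in tandem. The 250 bases before the RefSeq start of 4 called genes are shown for that reason, 5′ to 3′ on GRCm38.p6, with CCAAT and its complement ATTGG in capitals.
Ccnb1 (chr13:100786487-100786736, minus strand): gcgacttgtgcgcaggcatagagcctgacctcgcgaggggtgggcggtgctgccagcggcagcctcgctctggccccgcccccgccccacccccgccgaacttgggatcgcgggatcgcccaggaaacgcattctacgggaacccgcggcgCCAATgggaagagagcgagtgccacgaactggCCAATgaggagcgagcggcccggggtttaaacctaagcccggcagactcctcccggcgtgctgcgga
Ccnb2 (chr9:70421555-70421804, minus strand): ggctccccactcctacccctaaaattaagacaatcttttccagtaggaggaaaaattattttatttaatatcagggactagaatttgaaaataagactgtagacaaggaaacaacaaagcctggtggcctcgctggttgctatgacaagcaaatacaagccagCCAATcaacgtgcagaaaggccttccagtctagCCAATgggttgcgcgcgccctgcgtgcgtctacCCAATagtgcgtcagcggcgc
Top2a (chr11:99024190-99024439, minus strand): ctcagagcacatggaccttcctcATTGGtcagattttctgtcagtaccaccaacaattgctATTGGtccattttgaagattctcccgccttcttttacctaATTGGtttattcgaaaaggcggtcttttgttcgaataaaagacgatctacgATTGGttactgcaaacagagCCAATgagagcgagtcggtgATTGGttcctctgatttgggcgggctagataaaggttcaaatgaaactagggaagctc
Hmmr (chr11:40733438-40733687, minus strand): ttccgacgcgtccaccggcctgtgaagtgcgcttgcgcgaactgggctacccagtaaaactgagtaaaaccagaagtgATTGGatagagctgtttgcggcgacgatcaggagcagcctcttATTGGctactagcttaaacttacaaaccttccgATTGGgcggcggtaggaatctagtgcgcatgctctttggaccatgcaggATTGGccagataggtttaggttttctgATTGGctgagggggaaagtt
They hold 2, 3, 6 and 5 matches. Of 39 tested cell cycle genes with a promoter entry, 30 (76.9%) held at least 1 match and 20 (51.3%) at least 2, against 39.1% and 13.4% of all 14401 tested genes with an entry. The genes called higher had 11 of 19 (57.9%) and the genes called lower 25 of 60 (41.7%) with a match. Both strands were searched in the same window, and no binding was measured.

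4 genes of antigen presentation rose. Of 13 tested genes of MHC class II presentation, 4 were called higher and none lower, beside 0.105% and 0.327% of all genes. The median log2 fold change was 1.32. *Cd74*, the invariant chain that guides class II molecules, had 3.48, 10.4 and 4.71 normalised counts in the DEX pools and 59.4, 89.5 and 69.2 at 1 week. Its ratio was 11.7, with a log2 fold change of 3.67 ± 0.46 (SE) and an adjusted p of 0.00343, and it passed in 12 of the 12 fits that left out 1 library. *H2-Aa*, the class II alpha chain, had 0.994, 4.09 and 1.46 and 18, 27.9 and 24.8, and *H2-Ab1*, the matching beta chain, had 1.66, 6.05 and 1.35 and 22.4, 62.1 and 19.8. *H2-Eb1* had 1.16, 1.96 and 2.69 and 9.51, 20.3 and 13.3. In all 4 genes every 1 week pool was above every DEX pool, and the 4 week pools reached higher levels, up to 155 in *Cd74*. Control pools had 29.6 to 104 in *Cd74*, 5.74 to 20.9 in *H2-Aa*, 9.76 to 34.9 in *H2-Ab1* and 5.43 to 17.9 in *H2-Eb1*. The 1 week mean was above the control range in *H2-Aa* (23.6). It was within that range in *Cd74* (72.7), *H2-Ab1* (34.8) and *H2-Eb1* (14.4). The 3 H2 genes were 10.8, 11.5 and 7.42 times as high at 1 week, with adjusted p-values of 0.00783, 0.0168 and 0.0215. Some of these genes had been singled out by the study on these samples. The 4 calls were 1 without DEX pool 1, 1 without DEX pool 3, 2 without 1 week pool 2 and 1 without both pools numbered 3, where the median was 1.45.

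Class II promoters are known for a Y box of the same CCAAT type close to the start, so those of *H2-Aa* and of *H2-Eb1*, a beta chain gene of another class II molecule, are given in the same way.
H2-Aa (chr17:34287824-34288073, minus strand): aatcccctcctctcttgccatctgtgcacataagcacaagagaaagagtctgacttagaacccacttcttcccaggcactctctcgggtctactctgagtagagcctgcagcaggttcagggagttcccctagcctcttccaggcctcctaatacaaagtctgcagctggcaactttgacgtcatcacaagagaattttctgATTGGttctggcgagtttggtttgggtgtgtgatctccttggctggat
H2-Eb1 (chr17:34305617-34305866, plus strand): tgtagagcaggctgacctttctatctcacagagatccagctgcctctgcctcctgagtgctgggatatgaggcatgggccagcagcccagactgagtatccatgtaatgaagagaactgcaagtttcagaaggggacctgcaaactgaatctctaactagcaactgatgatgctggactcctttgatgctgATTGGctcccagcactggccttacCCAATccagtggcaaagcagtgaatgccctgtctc
The match lies 48 bases before the start in *H2-Aa*, and *H2-Eb1* has matches 59 and 35 bases before it. 8 of 10 tested class II genes with an entry held a match (80.0%) and 1 of 10 held more than 1.

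Markers of macrophages and dendritic cells, which use class II molecules, had more reads at 1 week. Their summed normalised count over 19 markers was 33.5, 43.6 and 46.6 in the DEX pools and 81.6, 136 and 85.6 in the 1 week pools. None of the 19 passed limma's adjusted threshold, and the median was 1.64. 11 were higher and none lower at an unadjusted p under 0.05, beside 5.19% and 5.59% of all genes. With array weights 5 passed, and 5, 1 and 6 passed by edgeR's likelihood ratio and quasi-likelihood tests and DESeq2, all on the 1 week side. No member was at 0 in all DEX pools. *C1qc*, a complement subunit of macrophages, had 0.745, 1.14 and 1.79 and 4.85, 9.18 and 6.11, and *Itgal*, a leukocyte integrin, had 1.74, 0.736 and 0.785 and 12, 20.1 and 2.33, with adjusted p-values of 0.0861 and 0.0592. *Lyz2*, the most abundant marker of the list, had 9.03, 12.9 and 14.9 and 13, 20.4 and 25.9 and its groups overlapped. The part of these cells in the class II rise was not tested. Of 30 genes of MHC class I and the interferon response, 2 were called higher, beside 0.105% of all genes, and the median was 0.83. 14 were higher and 2 lower at an unadjusted p under 0.05, beside 5.19% and 5.59% of all genes. *Psmb8*, an immunoproteasome subunit, had 11.6, 14.1 and 15 and 32, 41.2 and 31.6, with a log2 fold change of 1.35 ± 0.26 (SE) and an adjusted p of 0.0322. *H2-Q6*, a class Ib gene of a family of related sequence and so uncertain in counting, had 1.41, 2.7 and 0.897 and 8.84, 5.61 and 20.2 (2.65 ± 0.51 (SE), adjusted p = 0.0307). *Psmb8* was called in 6 of the 12 fits that left out 1 library, and not without control pool 2, DEX pool 1, 2 or 3, 1 week pool 2 or 4 week pool 2. *H2-Q6* was called in 7 of the 12, and not without DEX pool 1, DEX pool 3, 1 week pool 3 or 4 week pool 1 or 2. Neither was called without both pools numbered 3. The 2 calls were 5 with array weights, 4 by edgeR's likelihood ratio test, 3 by its quasi-likelihood test and 7 by DESeq2.

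Endothelial transcripts had the largest median of the 28 lists, at 3.02 over 17 markers. 2 were called higher, beside 0.105% of all genes. 14 were higher and none lower at an unadjusted p under 0.05, beside 5.19% and 5.59% of all genes. The summed count of the markers was 51 to 120 in the control pools, and all DEX pools lay below that range, at 12.9 to 20.4. At 1 week, pools 1 and 2 (101 and 76.5) were within the control range and only pool 3 (266.5) was above it. *Kdr*, the VEGF receptor 2 gene, had 0.994, 2.7 and 0.673 in the DEX pools and 6.27, 14 and 26.8 at 1 week, with a ratio of 10.8, a log2 fold change of 3.33 ± 0.59 (SE) and an adjusted p of 0.0191. *Aplnr* was the second. *Plvap*, the diaphragm protein of fenestrated capillaries and the most abundant marker, had 1.33, 4.17 and 3.14 and 15, 7.39 and 92.7, with an adjusted p of 0.189. *Esm1*, an endothelial proteoglycan that is also listed as a melanotroph marker, had 3.81, 4.66 and 1.79 and 58.6, 14.5 and 6.78, with an adjusted p of 0.0776 and, without 1 week pool 3, 0.0126. *Kdr*, *Aplnr* and *Plvap* were highest in 1 week pool 3, and *Esm1* in 1 week pool 1. No endothelial marker was at 0 in all 3 DEX pools, though 6 of the 17 were at 0 in DEX pool 3. The 2 calls were 4 without control pool 1, 1 without DEX pool 1, none without DEX pool 3, 5 without 1 week pool 1 and none without both pools numbered 3, where the median was 2.11. They were 6 with array weights, 12 by DESeq2, and 15 and 7 by edgeR's likelihood ratio and quasi-likelihood tests.

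Stromal genes were called in both directions, while the list as a whole leaned upward. Of 24 markers of pericytes and fibroblasts 1 was called higher and 1 lower, beside 0.105% and 0.327% of all genes. 11 were higher and 2 lower at an unadjusted p under 0.05, beside 5.19% and 5.59% of all genes, and the median was 1.40. Pools did not overlap in 11 with 1 week on the high side and in 2 with DEX on the high side. The shares over all genes were 6.97% and 6.87%. *Col3a1*, a fibrillar collagen chain, had 0.497, 0.0818 and 0 and 2.09, 3.82 and 3.89, with a log2 fold change of 3.88 ± 0.66 (SE) (adjusted p = 0.0142). *Fbn1*, the fibrillin gene of elastic microfibrils, had 12.3, 7.85 and 24.3 under DEX and 0.951, 0.637 and 2.45 at 1 week, and so went the other way (-3.42 ± 0.66 (SE), adjusted p = 0.0309). *Col1a2*, the most abundant of the list, had 114, 110.1 and 75.9 and 74.9, 214 and 175, and its groups overlapped. The summed level was 168, 171 and 142 in the DEX pools and 138, 309 and 350.4 at 1 week. Neither call held without DEX pool 3 or without both pools numbered 3. *Col3a1* was called with every other library left out, and *Fbn1* was also not called without DEX pool 1, 1 week pool 1, 1 week pool 2 or 4 week pool 2. The calls were 4 higher and 2 lower by DESeq2 and 7 and 2 by edgeR's likelihood ratio test.

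Markers of the other hormone lineages gave no call. Medians were 0.13 over 6 somatotroph, -0.04 over 5 lactotroph, -0.11 over 8 gonadotroph, 0.34 over 5 thyrotroph and 0.58 over 7 melanotroph genes. *Gh* had a log2 fold change of 0.79 with an interval of -2.92 to 4.50, and *Prl* of 0.49 with -2.30 to 3.27, which leaves room for large differences in either direction. *Cga*, the shared subunit of the glycoprotein hormones, had 909, 2089.8 and 3267 and 3369, 3565 and 4068, with no overlap and an adjusted p of 0.528. *Tshb*, the thyrotropin beta subunit, had 41.8, 257 and 91.3 and 259, 133 and 306, and *Drd2*, the dopamine D2 receptor of lactotrophs and melanotrophs, had 53.1, 48.2 and 25.7 and 21.4, 25.1 and 52.4, so that the groups overlapped in both. *Pcsk2*, the convertase of melanotrophs, had 38.3, 44.5 and 59.1 and 50.4, 129.7 and 51.1. *Foxo1* and *Pappa2* were the somatotroph genes with the smallest unadjusted p. Their log2 fold changes were -1.28 ± 0.54 (SE) and -0.68 ± 0.30 (SE), with adjusted p-values of 0.393 and 0.429. The 16 stem and folliculostellate markers had a median of 0.19, and their most abundant member, *Cyp2f2*, had 270.3, 261 and 267 and 111, 230.1 and 168. *Krt19*, a keratin of the same list, had 5.72, 1.14 and 16.9 in the DEX pools and 0.285, 0.127 and 0.667 at 1 week, and its adjusted p was 0.107. The 8 tested neural and posterior lobe markers had a median of 0.09, with *Snap25* at 330.5, 374 and 274 and 555, 291 and 373. The 5 tested erythroid genes had a median of 1.43, and *Hbb-bs* had at most 0.449 in the DEX pools and 1.14, 3.82 and 0.334 at 1 week.

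Metabolic lists had medians near that of all genes. 28 genes of the ATF4 response and amino acid supply had a median of 9.5e-05. Of these, 3 were higher and 5 lower at an unadjusted p under 0.05, beside 5.19% and 5.59% of all genes. 1 was called lower, beside 0.327% of all genes, and it was *Slc7a5*. The count was 0 without DEX pool 1 or 3 and 2 without DEX pool 2. *Mthfd2*, a mitochondrial enzyme of the folate cycle, had 134, 78.2 and 208 and 55, 52.8 and 42.8, with no overlap, a log2 fold change of -1.38 ± 0.30 (SE) and an adjusted p of 0.0619, or 0.0154 without DEX pool 2. None of 32 genes for sterol and fatty acid synthesis passed, and their median was 0.13. Of these, 2 were higher and 2 lower at an unadjusted p under 0.05, beside 5.19% and 5.59% of all genes. *Fasn*, the fatty acid synthase gene, had 188, 209 and 565 under DEX and 51.2, 239 and 49.4 at 1 week, where pool 2 was above 2 of the DEX pools while the other two lay below all of them. Its log2 fold change was -1.73 ± 0.51 (SE) (adjusted p = 0.158), and without 1 week pool 2 the adjusted p was 0.0123. *Acss2*, an acetyl-CoA synthetase, had 82.8, 66.8 and 96.3 and 43, 60.4 and 31.9 (-0.89 ± 0.28 (SE), adjusted p = 0.195).

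*Ly6g6c*, a GPI-anchored protein of the Ly6 family, had 0.58, 0.327 and 0 in the DEX pools and 25.6, 90.4 and 20.7 at 1 week. 1 week pool 2 was far above the others, and the control pools had 0.825 to 1.18. The log2 fold change was 6.89 ± 0.71 (SE) and the adjusted p 0.000665, passed in 12 of the 12 fits that left out 1 library. *Pomc*, *Nmb*, *Ly6g6c* and *Ttyh1* all had their highest value in 1 week pool 2 and their lowest 1 week value in pool 3.

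Among the genes that fell, *Ptgds* (chr2:25466709-25470046), which makes prostaglandin D2, had 129.7, 132 and 245 in the DEX pools and 36.7, 37.7 and 31.4 at 1 week. The 1 week values were tight and lay close to the control pools (30.5 to 44.6), with a 4.79-fold fall, a log2 fold change of -2.19 ± 0.27 (SE) and an adjusted p of 0.00343. *Tnnt1*, the slow skeletal troponin T gene, had 240.4, 149.5 and 408 and 31.5, 10.6 and 2.22 (-4.73 ± 0.64 (SE), adjusted p = 0.0044). In *Tmem37* and *Tnnt1* DEX pool 3 was the highest and 1 week pool 3 the lowest, as in *Tbx19*. *Plb1*, a phospholipase of the plasma membrane, was at 0 reads in all control pools, had 10.2, 8.99 and 15.9 under DEX and 0.475, 0.51 and 0.334 at 1 week. The fall from DEX was 4.42 on the log2 scale (SE 0.62, adjusted p = 0.00543). The 1 week pools were still above the control pools, but held at most 5 reads each, so that difference rests on a few reads.

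2 genes of the first rank were at the floor a week after withdrawal. *Adamtsl3*, an ADAMTS-like matrix protein, had 6.87, 4.25 and 11.7 in the DEX pools and 1 read in each 1 week pool, at least 22.8-fold lower. *Psg21*, a pregnancy-specific glycoprotein, had 1.16, 1.64 and 3.25 in the DEX pools and no reads in any control, 1 week or 4 week pool, at least 6.04-fold lower, and its close copies make the gene uncertain in counting. Adjusted p-values were 0.00343 and 0.0044. *Ptgds*, *Adamtsl3*, *Tmem37*, *Tnnt1* and *Plb1* each passed in all 12 fits that left out 1 library, and so did *Psg21*. *Psg21* met the filter on low values only through its DEX pools, where it was high. The filter was not redone in these fits, so the passes of *Psg21* are not independent support.

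Among the 81 genes called lower, DEX pool 3 held the highest DEX value in 61 and DEX pool 2 the lowest in 64. *Tbx19* had the same order of DEX pools, and the part of corticotroph content in these falls was not tested. Among the 26 called higher, 1 week pool 2 was the highest of its group in 15 and 1 week pool 3 the lowest in 17. The order of pools was not counted over all genes, so neither order is shown to be particular to the called genes.

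Set against the control pools, the called genes differed by direction. The mean of the 1 week pools lay above the control range in 22 of the 26 higher genes and within it in 4. For the lower genes it lay within the control range in 37 of 81, below it in 39 and above it in 5. Over all genes tested, the 1 week mean was above the range in 23%, within it in 65.9% and below it in 11.1%. The 1 week values took part in choosing these genes, so the positions are a description. The 4 week pools did not enter the contrast values, and their mean was above the control range in 17 of the 26 and within it in 9. For the 81 lower genes the 4 week mean was within the control range in 33, below it in 32 and above it in 16. Over all genes tested, the 4 week mean was above the range in 22.4% and below it in 16.3%.

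**Figure D5:**
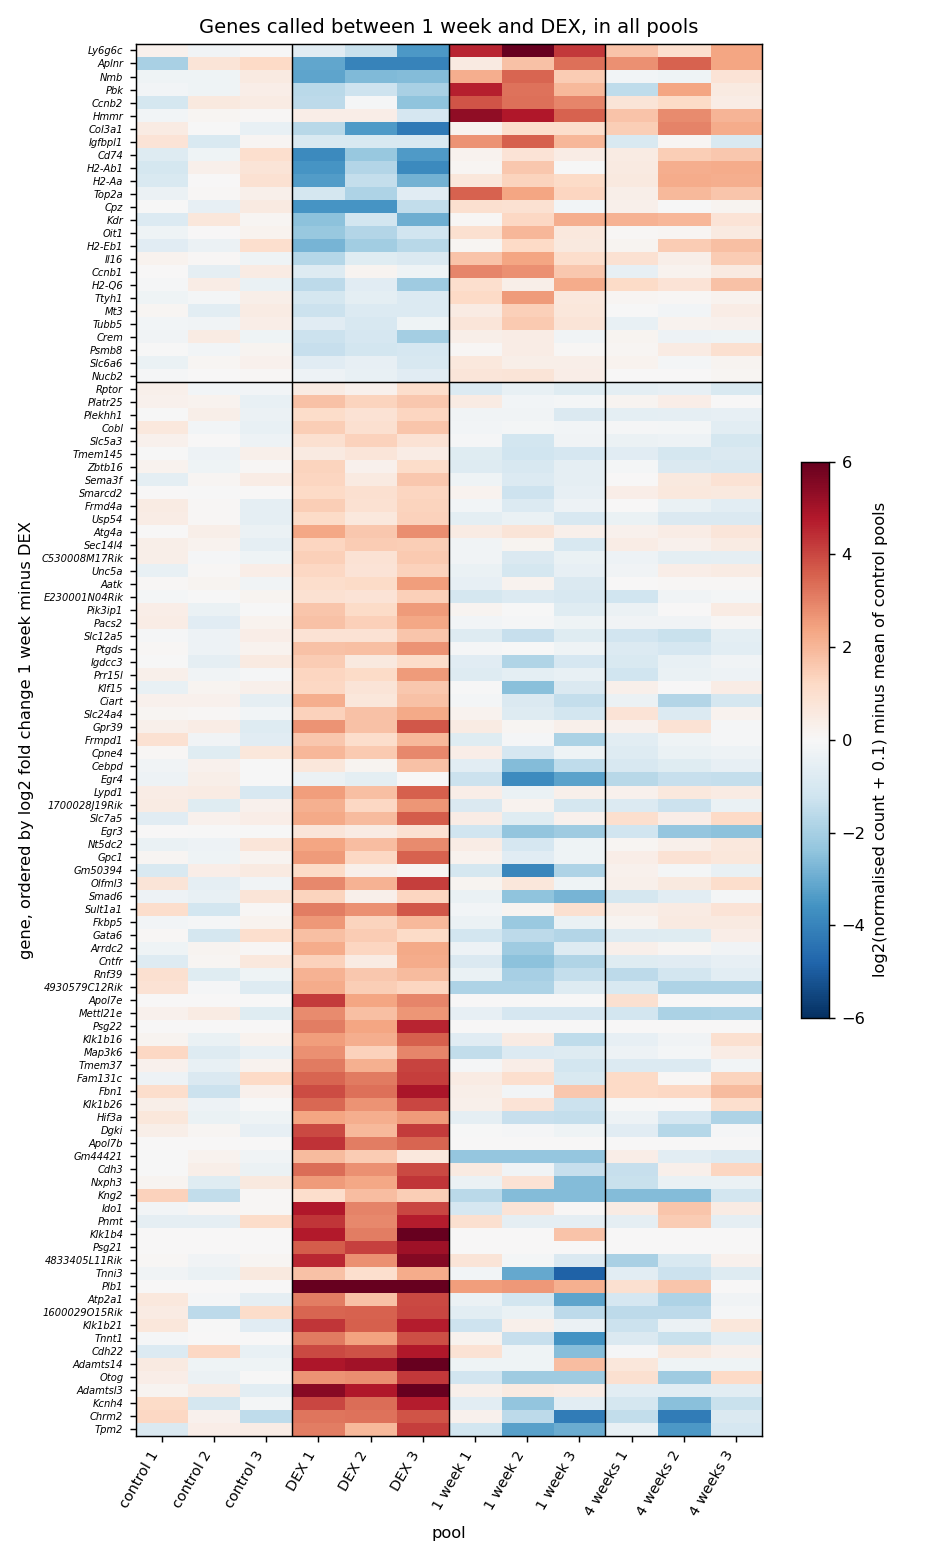
Log2(normalised count + 0.1) of the 107 called genes in all 12 pools, minus the mean of the control pools, with genes ordered by the log2 fold change, 1 week minus DEX, and the 26 higher genes above the horizontal line. Red is above and blue below control. DEX columns are blue in the upper block and red in the lower one, and 1 week columns are red in the upper block and pale or blue in the lower one, where 39 of 81 genes had a 1 week mean below the control range.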

How the data were processed

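RNA of FACS-sorted *Pomc*-eGFP cells from anterior pituitaries of male mice was too scarce to quantify, so cDNA was amplified (SMART-V4) before the libraries were run together in 1 lane. Per the labels, the authors used Trim Galore 0.6.5, STAR 2.7.1a on GRCm38, featureCounts 2.0.0 and edgeR, and the methods add the Ensembl 98 annotation and a mapping quality of at least 20. The deposited values are a normalised signal, CPM on the library size multiplied by edgeR's TMM scaling factor, which the authors had applied before deposit. Plain CPM had been assumed when the test was chosen, and limma was kept. All 271881 values above 0 were whole reads within 1e-06 of a read, so count tests could be run on recovered reads as alternatives. The SMART-V4 kit does not mark strand although counting was strand-specific, and 30 of the 107 called genes share exon bases with a gene on the other strand.

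Analysis used R 4.3.3 with limma 3.58.1 (moderated test with a mean-variance trend), fitting the 4 groups together on log2(value + 0.1), the contrast 1 week minus DEX, and Benjamini-Hochberg adjustment at 0.05. Fold changes are on this scale, which understates changes of low genes. Alternatives were edgeR 4.0.16, DESeq2 1.42.0, other pseudocounts, filters, scalings, weights, models and left-out libraries. Scripts were tested on simulated data. Folds against a group with at most 3 reads per library were taken against 3 reads in each library and are bounds that cover counting error only. Pools are the replicates, and limma's p-values rest on a spread shared by the pools of all 4 groups and moderated over genes. They do not measure the spread of the DEX and 1 week pools alone. Named genes were the 10 with the smallest adjusted p in each direction whose pools did not overlap, every called list member, up to 2 members of smallest p for lists with fewer than 2 calls, 17 genes fixed by name, and the most abundant marker of each marker list. *Mrps6*, *Lypd1*, *Rabep2* and *Sec11a* were added after their values were seen, as overlapping neighbours. The comparison, gene lists and rules were chosen with earlier results of these data known. Promoters are from RefSeq (GRCm38.p6, 250 bases before the start), with 14401 of 24736 tested genes matched by symbol, and gene coordinates are from GENCODE M21 on GRCm38.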

Additional observations from a re-analysis of the deposited data

How the results depend on the processing

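Against 107 called genes (26 higher, 81 lower), the model of only the 6 libraries compared called 0 (0 higher, 0 lower; 2106 at an unadjusted p under 0.05), limma's array weights 566 (297, 269), edgeR's likelihood ratio test 712 (331, 381), DESeq2 573 (264, 309) and edgeR's quasi-likelihood test 145 (52 higher). Without both pools numbered 3, an alternative chosen after seeing the data, 39 were called and 16 of them were lower. Leaving out 1 library gave 16 to 200 calls, 5 to 75 higher and 11 to 164 lower, with the lowest number without DEX pool 3 (16) and DEX pool 1 (29) and the highest without 1 week pool 1 (200). The number of higher genes was also 13 without 1 week pool 2 and 75 without 1 week pool 3. The pseudocounts, the filters on low values, median-ratio scaling and a log2 fold change past 1 kept the counts within 1.5 times. The number of genes called lower went from 8 to 16 in the glucocorticoid list and from 7 to 12 in the transporter list with edgeR's likelihood ratio test, and from 4 to 8 in the *Klk1* list with array weights. The cause of these differences was not tested, beyond the smaller number of libraries in the model.

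*Pomc* had a log2 fold change of 4.51 and passed the threshold with a filter above 1 (4.51), array weights (4.55), DESeq2 (4.81) and the edgeR tests (4.80 by quasi-likelihood and by likelihood ratio), and its range with 1 library left out was 3.90 to 5.25. Directions turned for 7 genes that were not called. *Neurod1* had 0.773 with array weights, 0.238 in both edgeR tests, 0.248 in DESeq2, 0.475 without both pools numbered 3 and -0.834 to 0.465 with 1 library left out. *Crhr1* had 0.670, 0.436, 0.440, 1.5 and -0.934 to 1.07 in the same order. With array weights *Kcnma1* had 0.0059, *Prl* -0.156 and *Col1a2* -0.197. With 1 library left out *Nr3c1* ranged from -0.208 to 0.28, *Per1* from -0.607 to 0.0949 and *Kcnma1* from -0.608 to 0.117. The other named genes kept their direction under all alternatives in which they were tested. Over all pairs of a named gene other than *Pomc* and an alternative, a call was lost in 219 and gained in 65.

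Same-numbered pools had correlations of -0.294 to 0.397 in their deviations, and differently numbered pools had -0.273 to 0.382. With 3 pools per group these values cannot settle whether the numbers mark a pairing. With a replicate block in the model 139 genes were called. Amplification from scarce RNA adds noise that read depth does not show, and genes of a few normalised counts rest on a few reads.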
